A study of Mus musculus with 4 samples.

Results

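Cohesin, condensin, CTCF and the nuclear lamina shape chromosomes in the interphase and the dividing nucleus. The genes described here are a list of 34, chosen by name for what their proteins do and not for their values, out of 30731 genes listed in all 4 count tables. They fall into 18 genes of interphase loops (CTCF, cohesin, its loading, release and acetylation factors, and proteins that bind or act at loop anchors), 10 genes tied to the cell cycle (S-phase cohesion and the condensins), the 2 Smc5/6 core subunits, and 4 genes of the lamina. All 34 were matched to an Ensembl identifier.

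As background, cohesin is a ring of Smc1a, Smc3, Rad21 and a Stag subunit that extrudes loops of chromatin until it meets CTCF bound to DNA, and the ends of such loops often frame the regulatory domains of lymphocyte genes. Condensins are related rings that fold chromosomes for mitosis: condensin II sits in the nucleus throughout the cycle, while condensin I reaches chromosomes once the nuclear envelope has broken down. Lamins form a mesh under the nuclear envelope, where Lbr and A-type lamins are known as alternative tethers for silent chromatin at the nuclear rim.

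The libraries were made from innate lymphoid cells that were also used for chromosome contact maps, which are not analysed here. NK cells, labelled as group 1, came from the spleens of pooled wild-type C57BL/6 mice aged 8 to 12 weeks (1 library), and the labels name no culture for them. Group 2 innate lymphoid cells (ILC2) came from the bone marrow of pooled wild-type C57BL/6 mice of the same ages and were expanded with IL-25, IL-33, IL-7 plus IL-2 at 10 ng/ml (1 library). The MNK-3 line stands for group 3 cells (2 libraries): it is 1 line, labelled wild type, that was derived from NIH-Swiss thymocytes of fetal day 15 and is grown with IL-15 and IL-7 at 10 ng/ml. Strain, tissue, age and culture therefore differ together between the 3 kinds of cell, and their parts in any difference cannot be told apart.

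Gene reads per library numbered 4637812 in NK, 9298162 in ILC2, and 25617762 and 15177345 in MNK-3 (replicate 1 and replicate 2, in that order throughout). MNK-3 replicate 1 stood apart: 75.8% of its reads fell in no gene, against 23.1% to 47.1% in the other libraries, and 3690 of the 4975 genes with no count in the other 3 libraries had counts in it, at a median of 0.460 counts per kb of exon per 1000000 gene reads. At that median density, such reads would make up 11.5% of the level of Hdac8 in that library, the largest share among the members. The 90th percentile of that density was 1.90 in the same unit, where Hdac8 itself stood at 3.99. With library totals no member was over 2-fold apart between the MNK-3 libraries. Of the members, 30 were higher in replicate 2, and the median ratio of replicate 2 to replicate 1 over all members was 1.32. The scaling factors of replicates 1 and 2 were 1.39 and 0.852 with trimmed means, and 1.84 and 0.804 with median ratios. Both pairs of factors widen the gap for those 30 members, and the 2-fold limit does not hold with either. Of the identity markers, Ncr1 stood at 1114 CPM (counts per 1000000 gene reads) in NK and at most 4.94 elsewhere, and Gata3 at 1015 CPM in ILC2. Il17rb, a subunit of the IL-25 receptor, was at only 3.98 CPM in ILC2, close to its 3.88 CPM in NK. Summed over its genes, the T cell list (Cd3e, Cd3g, Cd4, Cd8a, Trac) reached 11.7 to 85.2 CPM, the B cell list 0.988 to 39.4, the myeloid list 1.38 to 239.6, the erythroid list 0.753 to 6.87 and the stromal list 24.6 to 217, and all 21 genes of these lists had counts in NK and in MNK-3 replicate 1. Of those 21 genes, 5 were at 0 in MNK-3 replicate 2 and 4 in ILC2, and Itgam made up 233 CPM of the myeloid sum in NK. Their part in the results was not tested.

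The levels divided by role. Levels, orders of libraries and fold ranges are given with library totals unless another scaling is named. The lowest and highest library differed by 1.39-fold to 2.52-fold for 17 of the 18 loop genes and by 6.48-fold for Satb1. All 10 cycle-tied genes were lowest in NK, higher in ILC2 and highest in MNK-3 replicate 2, by 2.89-fold to 30.1-fold between lowest and highest. The median log2 ratio of CPM (0.5 CPM added) between MNK-3 and NK was 3.23 over the 10 cycle-tied genes and 0.12 over the 18 loop genes, beside 0.88 over all 25283 genes tested (0.69 over those at 10 CPM or more). Between ILC2 and NK these medians were 2.33, -0.54 and -0.26, and between MNK-3 and ILC2 they were 1.08, 0.62 and 1.12. The median of all genes turns on MNK-3 replicate 1: without it that median was -0.26 over NK and 0.00 over ILC2, below the loop medians of 0.17 and 0.70, and without replicate 2 it was 1.38 and 1.64, above the loop medians of -0.053 and 0.38. The cycle-tied medians without replicate 1 were 3.39 and 1.27, and without replicate 2 they were 3.05 and 0.90. The lamina genes lay between the groups against NK, with medians of 1.39 for MNK-3 and 0.44 for ILC2, and at 0.70 for MNK-3 over ILC2. MNK-3 and ILC2 share the NK library in their comparisons against it, so those values are not independent.

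**Figure D1:**
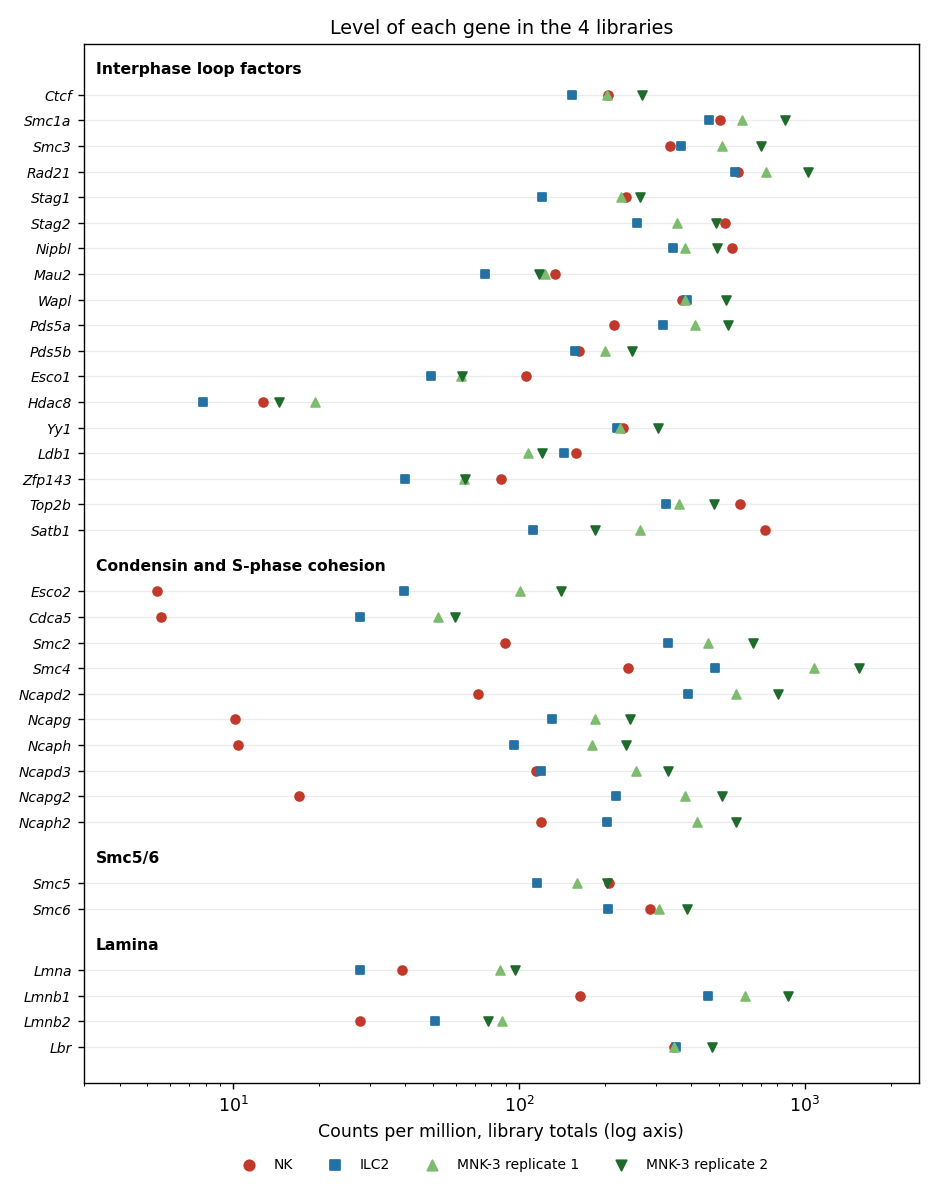
Level of each of the 34 genes in counts per 1000000 gene reads (log axis), 1 point per library, with genes ordered by role. Points of the 4 libraries lie within 2.52-fold for the loop and Smc5/6 genes other than Satb1, and the NK points lie lowest for all 10 cycle-tied genes.

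A difference was called with limma voom at a Benjamini-Hochberg adjusted p under 0.05 over all 25283 genes, of which all 34 members were part. The only replicates are the pair of MNK-3 libraries, for which the labels name no separate cultures, so these p-values measure the spread between those libraries, which may be technical, and lend it to NK and ILC2. Against NK, 5 members were called higher in MNK-3 (Smc2, Smc4, Ncapd2, Ncaph2, Lmnb1) and 1 lower (Satb1). Over all genes tested 0.289% were called higher and 2.04% lower in that comparison. Against ILC2, 4 members were called higher in MNK-3 (Smc4, Ncapd3, Ncapg2, Ncaph2), beside 0.902% of all genes, and 0 lower, beside 2.37%. With an unadjusted limma voom p under 0.05, 18 members were higher and 0 lower in that comparison, where 3.46% of all genes were higher and 4.45% lower. In ILC2 against NK, Ncapd2 was called higher, beside 0.479% of all genes, and Satb1 lower, beside 0.819%.

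Counted by size, with no test, all 10 cycle-tied genes were at least 2-fold higher in both MNK-3 libraries than in NK, as were 3 of 4 lamina genes and 0 of 18 loop genes. That makes 13 of the 34, where 21.8% of 13151 genes at 10 CPM or more in any library met the same rule, and 1 (Satb1) was at least 2-fold lower, where 7.34% of genes were. In ILC2 against NK, 8 of the 10 cycle-tied genes and 1 of 4 lamina genes were at least 2-fold higher (18.2% of all such genes), and 4 of 18 loop genes at least 2-fold lower (20.3%). Against ILC2, 4 cycle-tied genes and 1 lamina gene were at least 2-fold higher in both MNK-3 libraries (18.3% of all such genes) and 0 of the 34 lower (6.92%).

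These calls depend on how the libraries are scaled. With the libraries scaled by trimmed means (TMM) or by median ratios, no member was called in any comparison; at an unadjusted p under 0.05, limma voom with TMM then gave 8 members for MNK-3 over NK, 0 for MNK-3 over ILC2 and 6 for ILC2 over NK, and with median ratios 5, 0 and 3. Over all genes, the share of calls that were higher was 12.4% for MNK-3 over NK, 27.5% for MNK-3 over ILC2 and 36.9% for ILC2 over NK, and with TMM 2 of 134, 2 of 86 and 0 of 0. Counts thinned to the depth of the NK library gave 13, 7 and 6 called members, and 50.8%, 48.3% and 54.0% of all calls were then higher. The median of all genes tested moved with scaling from 0.38 to 0.97 (MNK-3 over NK), from 0.54 to 1.20 (MNK-3 over ILC2) and from -0.26 to -0.05 (ILC2 over NK) on the log2 scale.

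**Figure D2:**
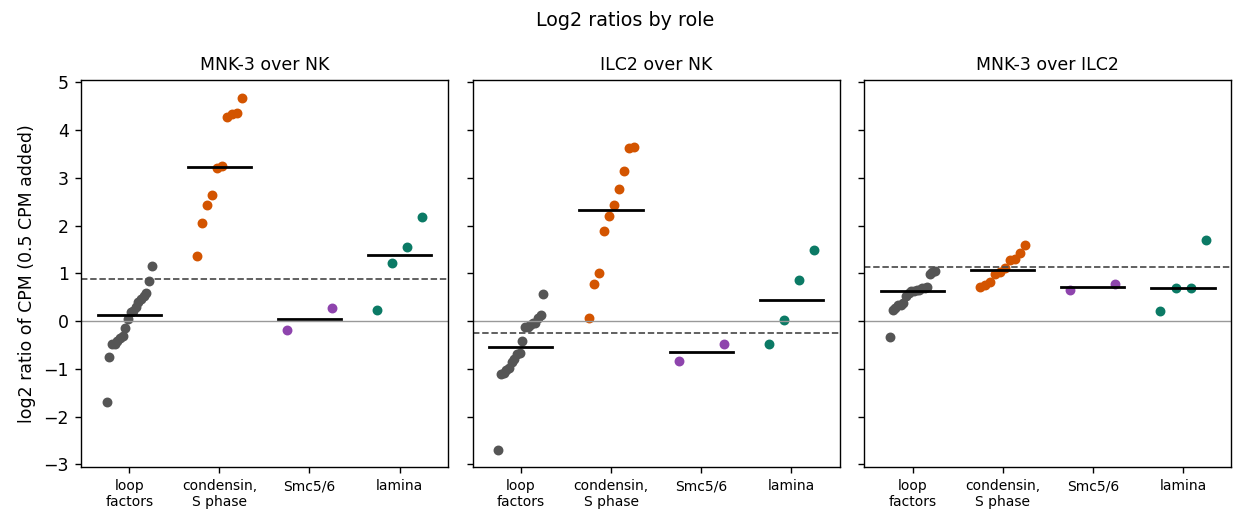
Log2 ratio of CPM (0.5 CPM added) of each gene between the 3 kinds of cell, 1 point per gene and 1 column per role in each panel, with the median of each role as a black bar and that of all genes tested as a dashed line. Cycle-tied genes all lie above 1 for MNK-3 over NK, while the loop genes scatter around 0, with Satb1 lowest for ILC2 over NK.

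CTCF and the cohesin ring came first among the loop genes. Ctcf, which encodes the zinc finger protein that stops extrusion at its binding sites, was at 205 CPM in NK, 153 in ILC2, and 203 and 269 in MNK-3. ILC2 held the lowest value with library totals, and MNK-3 replicate 1 with TMM factors. The NK value lay between those of the MNK-3 libraries. Smc1a, an ATPase arm of the ring, was at 503 CPM in NK, 462 in ILC2, and 604 and 854 in MNK-3. Its partner arm Smc3 was at 337, 368, and 513 and 701 CPM in the same order. Rad21, the kleisin that closes the ring, was at 582, 569.8, and 729 and 1024 CPM. With library totals both MNK-3 libraries lay above NK and ILC2 for these 3 ring genes, and NK and ILC2 were at most 1.09-fold apart. With TMM factors MNK-3 replicate 1 fell below ILC2 for all 3, and below NK for Smc1a and Rad21. Of these 3 genes, 0 were called with limma voom (adjusted p from 0.164 to 0.218 against ILC2). Against NK, 2 of the 5 core cohesin genes were higher in MNK-3 at an unadjusted p under 0.05, as were 1.34% of all genes. All 5 core cohesin genes were higher in MNK-3 than in ILC2 at an unadjusted limma voom p under 0.05. Their log2 ratios ran from 0.62 to 1.03, and 3.46% of all genes were higher at that threshold. With TMM or median-ratio scaling, 0 members passed that threshold between MNK-3 and ILC2. With library totals, the median over genes at 10 CPM or more was 0.67 in that comparison. Without MNK-3 replicate 1 it was 0.20 and the core cohesin median 0.91, and without replicate 2 the values were 0.76 and 0.45.

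With library totals, the alternative Stag subunits, which bind the ring and help it meet CTCF, were lower in ILC2 than elsewhere without passing the test. Stag1 was at 237 CPM in NK, 120.1 in ILC2, and 227 and 265 in MNK-3. Stag2 was at 525, 259, and 356 and 489 CPM. ILC2 was the lowest library for both, as for 14 of the 18 loop genes, and NK and MNK-3 overlapped for Stag1. With median-ratio factors MNK-3 replicate 1 was the lowest library for all of these 14 genes instead. With TMM factors it was lowest for them too, except for Stag1, Hdac8 and Satb1, where ILC2 stayed lowest. The NK level was 1.97 times the ILC2 level for Stag1 (95% Poisson interval 1.81 to 2.15, counting error only) and 2.03 times for Stag2 (1.91 to 2.14), with adjusted p of 0.979 and 0.213 in limma voom. Per kb of exon, Stag1 stood at 0.317 of Stag2 in NK, 0.325 in ILC2, and 0.447 and 0.380 in MNK-3. Stag2 was thus the more abundant transcript per length in each of the 4 libraries, and its share of the summed core cohesin level per kb was 17.2% in NK and 9.71% to 9.96% in the other 3.

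Loading and release factors set how long cohesin stays on chromatin. Nipbl, the loader that also drives extrusion, was at 555 CPM in NK, 344 in ILC2, and 379 and 492 in MNK-3. Its partner Mau2 was at 133, 76.1, and 123 and 118 CPM. With library totals both were highest in NK and lowest in ILC2, with the MNK-3 libraries between. With TMM factors MNK-3 replicate 1 was lowest for both. Wapl, which opens the ring and releases it, was at 372, 387, and 381 and 529.9 CPM. The difference in Wapl between ILC2 and NK was 0.05 on the log2 scale, with a 95% limma voom interval from -0.64 to 0.75, so differences within that interval were not resolved.

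The Pds5 proteins bind cohesin and serve both release and acetylation. Pds5a was at 214 CPM in NK, 317 in ILC2, and 411 and 539 in MNK-3. Pds5b was at 161, 156, and 199 and 249 CPM. NK was lowest for Pds5a and did not overlap the MNK-3 libraries, while Pds5b varied by 1.59-fold in all. Per kb of exon the level of Pds5a was 0.676 of that of Pds5b in NK, 1.03 in ILC2, and 1.05 and 1.10 in MNK-3. Pds5a, with a log2 difference of 1.12 between MNK-3 and NK (SE 0.37, adjusted p = 0.0877, limma voom), was the loop gene with the largest positive difference in that comparison and was not called.

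Acetylation of Smc3 locks cohesin against release. Esco1, the acetyltransferase active through interphase, was at 105 CPM in NK, 49.3 in ILC2, and 62.4 and 62.9 in MNK-3. NK lay 1.68-fold to 2.14-fold above the other libraries. Hdac8, which removes the mark, had the lowest level per kb of exon of the 34 genes in both MNK-3 libraries and ILC2, at 12.7, 7.85, and 19.3 and 14.5 CPM. It rests on 59 counts in NK and 73 in ILC2, and its limma voom SEs were 2.02 to 3.02 on the log2 scale.

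The next genes encode proteins that act at loop anchors. Yy1, a zinc finger protein that pairs enhancers with promoters, was at 231 CPM in NK, 219.7 in ILC2, and 225 and 305 in MNK-3. Ldb1, an adaptor that bridges distant elements, was at 158, 144, and 108 and 120.2 CPM. Ldb1 was the loop gene with the lowest log2 ratio between MNK-3 and ILC2 and the only one below 0 there, at -0.34, whereas Yy1 was nearly level. Zfp143, which binds promoters at CTCF-linked loops, was at 86.2, 39.9, and 64.2 and 64.6 CPM. Top2b, the topoisomerase of non-dividing cells that works beside CTCF and cohesin, was at 591, 325, and 362 and 481 CPM. With library totals both were highest in NK and lowest in ILC2, and with TMM factors both were lowest in MNK-3 replicate 1. Top2b shares 12.3% of its exon length with the neighbouring gene Rarb.

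Satb1 was the exception among the loop genes. The gene (ENSMUSG00000023927, chr17:51736187-51833290 in GENCODE M21 on GRCm38, to which all gene positions refer) encodes a nuclear organizer that binds AT-rich anchors and is best known from thymocytes. Its level was 726 CPM in NK, 112 in ILC2, and 264 and 185 in MNK-3. NK stood far above the other libraries, with no overlap, and with library totals the MNK-3 libraries stood above ILC2. Relative to NK, Satb1 was lower in MNK-3, with a log2 difference of -1.68 (SE 0.27, adjusted p = 7.54e-08, limma voom). In ILC2 it was lower than in NK too, with a log2 difference of -2.69 (SE 0.41, adjusted p = 2.44e-08, limma voom), or 6.48 times lower with a 95% Poisson interval from 6.04 to 6.95 for counting error only. Between MNK-3 and ILC2 the difference of 1.01 did not pass (adjusted p = 0.141, limma voom). Both calls were lost with TMM, median-ratio and abundant-gene scaling, and the direction was the same in each. In bulk RNA, fewer cells that carry a transcript and less of it per cell cannot be told apart, here or below.

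Promoters of the cycle-tied genes are shown because these genes had the same order of libraries with library totals, NK below ILC2 below MNK-3. RefSeq (GRCm38.p6) windows of 300 bases, from 250 before to 50 after an annotated start, were found for 27 of the 34 genes. Capitals mark matches on either strand to the cell cycle homology region core TTTGAA, to CCAAT, and to the E2F core TTCCCGC or TTGGCGC; no matches overlap in the windows printed. The windows of Ncapd2, Ncapg and Ncaph are condensin I, that of Ncapg2 condensin II and that of Cdca5 S-phase cohesion, and those of Ncaph2 and Smc3 are printed as a condensin and a cohesin gene without a match.
Ncapd2 (chr6:125191537-125191836, minus strand): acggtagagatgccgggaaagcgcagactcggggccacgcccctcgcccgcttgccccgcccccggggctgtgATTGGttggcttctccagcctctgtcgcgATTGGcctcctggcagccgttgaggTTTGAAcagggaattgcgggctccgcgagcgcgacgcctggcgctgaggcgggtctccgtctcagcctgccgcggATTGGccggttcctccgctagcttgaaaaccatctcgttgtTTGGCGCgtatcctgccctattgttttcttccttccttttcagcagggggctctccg
Ncapg (chr5:45669675-45669974, plus strand): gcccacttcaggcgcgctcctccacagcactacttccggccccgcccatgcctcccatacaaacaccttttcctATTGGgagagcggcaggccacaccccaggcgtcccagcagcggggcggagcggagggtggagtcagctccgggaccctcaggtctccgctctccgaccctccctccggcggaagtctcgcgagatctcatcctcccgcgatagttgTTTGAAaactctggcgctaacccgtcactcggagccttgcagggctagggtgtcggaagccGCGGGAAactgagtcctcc
Ncaph (chr2:127133905-127134204, minus strand): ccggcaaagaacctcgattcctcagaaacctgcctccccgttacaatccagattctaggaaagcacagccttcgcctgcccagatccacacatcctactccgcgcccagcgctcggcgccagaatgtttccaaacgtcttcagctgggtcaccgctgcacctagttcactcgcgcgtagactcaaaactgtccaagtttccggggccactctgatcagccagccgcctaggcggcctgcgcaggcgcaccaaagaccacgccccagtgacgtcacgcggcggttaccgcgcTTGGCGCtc
Ncapg2 (chr12:116405186-116405485, plus strand): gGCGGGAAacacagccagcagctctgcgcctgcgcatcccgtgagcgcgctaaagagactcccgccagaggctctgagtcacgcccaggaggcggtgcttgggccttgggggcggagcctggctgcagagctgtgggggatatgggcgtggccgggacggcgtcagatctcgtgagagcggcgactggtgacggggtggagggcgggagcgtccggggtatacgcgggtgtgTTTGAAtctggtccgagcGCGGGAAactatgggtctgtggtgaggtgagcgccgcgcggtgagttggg
Cdca5 (chr19:6084847-6085146, plus strand): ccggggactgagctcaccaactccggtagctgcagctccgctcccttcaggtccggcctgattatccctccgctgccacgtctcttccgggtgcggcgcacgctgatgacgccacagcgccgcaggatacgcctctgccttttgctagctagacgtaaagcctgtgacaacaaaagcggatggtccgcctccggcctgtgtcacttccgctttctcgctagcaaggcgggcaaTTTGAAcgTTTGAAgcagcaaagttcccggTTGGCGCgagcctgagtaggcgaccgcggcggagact
Ncaph2 (chr15:89355469-89355768, plus strand): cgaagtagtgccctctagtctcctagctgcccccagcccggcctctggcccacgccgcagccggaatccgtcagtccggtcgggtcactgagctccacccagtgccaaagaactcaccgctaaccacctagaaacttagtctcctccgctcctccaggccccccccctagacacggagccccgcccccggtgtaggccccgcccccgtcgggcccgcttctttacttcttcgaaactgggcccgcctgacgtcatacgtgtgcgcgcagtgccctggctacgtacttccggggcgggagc
Smc3 (chr19:53600146-53600445, plus strand): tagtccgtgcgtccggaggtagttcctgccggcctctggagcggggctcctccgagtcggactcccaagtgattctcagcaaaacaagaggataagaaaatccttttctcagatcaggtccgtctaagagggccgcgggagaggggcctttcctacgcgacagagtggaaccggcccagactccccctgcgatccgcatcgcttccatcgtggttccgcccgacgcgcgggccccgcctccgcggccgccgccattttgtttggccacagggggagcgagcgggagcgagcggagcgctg

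Of the 8 cycle-tied genes in the table, 6 hold TTTGAA, 3 CCAAT and 6 an E2F core in at least 1 window. Among the 14 loop genes in the table, 4 hold TTTGAA, 9 CCAAT and 5 an E2F core. Over all 32851 windows of the table, 17.9% hold TTTGAA, 37.4% CCAAT and 6.81% an E2F core. Counted from the annotated start, TTTGAA begins at -30 in Ncapg, at -18 in Ncapg2, at -17 and -9 in Cdca5 and at -123 in Ncapd2. The E2F core begins at -7 in Ncapd2 and at 0 in Ncapg2, the nearest to the start among the windows shown. Its other matches begin at -249 in Ncapg2, 13 in Cdca5, 31 in Ncapg and 41 in Ncaph, and at -240 in Ncapd3, not printed. A match is a run of letters and not a measured site, and genes with several annotated starts had more than 1 window to hold one.

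Condensin subunits made up 9 of the 12 calls over the 3 comparisons. Smc2 (ENSMUSG00000028312, chr4:52439243-52488260), one of the ATPase arms shared by both condensins, was at 89.1 CPM in NK, 332 in ILC2, and 459 and 657 in MNK-3. Smc4 (ENSMUSG00000034349, chr3:69004738-69034623), the other shared arm, was at 241, 485, and 1077 and 1545 CPM. For both genes NK was lowest, ILC2 came next and both MNK-3 libraries were highest with library totals. MNK-3 replicate 1 fell below ILC2 for Smc2 with TMM factors, and for both genes with median-ratio factors. MNK-3 exceeded NK by a log2 difference of 2.60 for Smc2 (SE 0.53, adjusted p = 9.59e-05, limma voom) and 2.40 for Smc4 (SE 0.34, adjusted p = 7.65e-10, limma voom). Smc4 also exceeded ILC2, by 1.39 (SE 0.23, adjusted p = 2.37e-07, limma voom), and kept that call in 5 of 7 alternatives, with adjusted p from 9.09e-12 to 1 over them. Smc2 against ILC2 (adjusted p = 0.163) and ILC2 against NK for Smc2 (0.0611) and Smc4 (0.394) did not pass in limma voom.

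The non-SMC subunits of condensin I gave a steep order of libraries. Ncapd2 (ENSMUSG00000038252, chr6:125168007-125191701), a HEAT-repeat subunit, was at 71.6 CPM in NK, 391 in ILC2, and 572 and 805 in MNK-3. Ncapg, the other HEAT-repeat subunit, was at 10.1, 130.0, and 184 and 243 CPM. Ncaph, the kleisin of condensin I, was at 10.3, 95.6, and 179.8 and 237 CPM. With library totals all 3 were lowest in NK by at least 5.46-fold, and the groups did not overlap. With TMM factors NK stayed lowest but MNK-3 replicate 1 fell below ILC2 for Ncapd2 and Ncapg. With median-ratio factors it fell below ILC2 for all 3. Ncapd2 was called in MNK-3 over NK, at 3.22 on the log2 scale (SE 0.61, adjusted p = 1.32e-05, limma voom). It was also called in ILC2 over NK, at 2.45 (SE 0.64, adjusted p = 0.0123, limma voom), and at 0.77 in MNK-3 over ILC2 it just missed (adjusted p = 0.0556, limma voom). Ncapg and Ncaph rest on 47 and 48 counts in NK, and with SEs of 2.63 and 2.60 neither was called despite log2 differences of 4.34 and 4.27 from NK to MNK-3. By counting error alone, the ILC2 level was 12.8 times that of NK for Ncapg (95% Poisson interval 9.59 to 17.6) and 9.24 times for Ncaph (6.91 to 12.6). Of the exon length of Ncapg, 13.4% is shared with the antisense gene Lcorl.

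Condensin II subunits differed among themselves. Ncapd3 (ENSMUSG00000035024, chr9:27030175-27095315), a HEAT-repeat subunit, was at 114 CPM in NK, 119 in ILC2, and 257 and 331 in MNK-3. Ncaph2 (ENSMUSG00000008690, chr15:89355719-89372826), the kleisin, was at 119, 203, and 418 and 571 CPM. Ncapg2 (ENSMUSG00000042029, chr12:116405402-116463731), the other HEAT-repeat subunit, was at 17.0, 218, and 381 and 513 CPM. NK and ILC2 were nearly level for Ncapd3 (1.04-fold, 95% Poisson interval 0.937 to 1.16) but 12.8-fold apart for Ncapg2 (10.2 to 16.3). Ncapg2 also had the widest ratio of any member between MNK-3 and NK. Against ILC2 all 3 were called higher in MNK-3: Ncapd3 at 1.27 (adjusted p = 0.0158), Ncapg2 at 0.99 (0.0252) and Ncaph2 at 1.24 (0.00174) on the log2 scale in limma voom. Against NK, Ncaph2 was called at 2.01 (SE 0.46, adjusted p = 0.000906, limma voom), while Ncapg2, with 79 counts in NK and an SE of 1.88, was not (adjusted p = 0.367, limma voom). Ncaph2 shares 19.8% of its exon length with the antisense genes Sco2 and Tymp, and whether strand was used in counting is not stated.

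The S-phase cohesion genes are Esco2, the acetyltransferase of replicating chromatin, and Cdca5, which encodes sororin, the protector of acetylated cohesin. Esco2 was at 5.39 CPM in NK (25 counts), 39.7 in ILC2, and 101 and 140.3 in MNK-3. Cdca5 was at 5.61 CPM in NK (26 counts), 27.7 in ILC2, and 52.1 and 59.6 in MNK-3. With library totals the order of libraries was that of the condensins, with no overlap, and 0 of these differences was called with limma voom. With median-ratio factors MNK-3 replicate 1 fell below ILC2 for Cdca5. At an unadjusted p under 0.05 only Esco2 in MNK-3 over ILC2 passed, at 1.54 on the log2 scale (adjusted p = 0.181, limma voom).

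**Figure D3:**
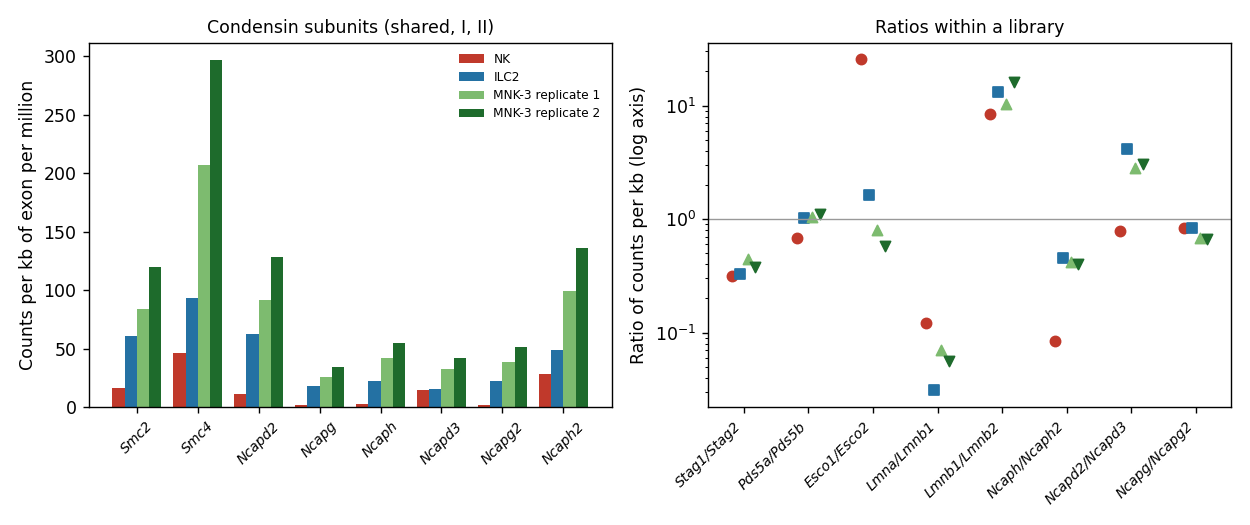
Left, condensin subunits in counts per kb of exon per 1000000 gene reads, 1 bar per library and no error bars since each bar is 1 library. Right, ratio of counts per kb between paired genes within each library (log axis, same colours), where Esco1 over Esco2 falls from 25.5 in NK to 0.806 and 0.585 in MNK-3.

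Ratios within a library do not depend on how libraries are scaled. Per kb of exon, Esco1 stood at 25.5 times Esco2 in NK, 1.62 times in ILC2, and 0.806 and 0.585 times in MNK-3. The interphase acetyltransferase was thus the more abundant in NK and ILC2, and the S-phase acetyltransferase in both MNK-3 libraries. The kleisin of condensin II, Ncaph2, stood at 11.8 times the kleisin of condensin I, Ncaph, in NK, 2.18 times in ILC2, and 2.38 and 2.47 times in MNK-3. Ncapd2 over Ncapd3 was 0.787 in NK, 4.13 in ILC2, and 2.80 and 3.06 in MNK-3. Both pairs placed NK apart, with relatively less condensin I, whereas Ncapg over Ncapg2 was 0.837 and 0.838 in NK and ILC2 and 0.681 and 0.667 in MNK-3. The geometric mean per kb of the condensin I genes (shared arms included) was 0.250 of that of the loop genes in NK, 2.01 in ILC2, and 2.43 and 2.87 in MNK-3. For the 3 condensin II subunits the same ratio was 0.283, 1.18, and 1.73 and 1.96. With 1 library each for NK and ILC2, these ratios have no test.

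All 15 cell cycle markers were lowest in NK, as the condensins were, but not all kept the order of ILC2 below MNK-3. Ccnb1 was at 65.4 CPM in ILC2, above the 49.9 and 44.4 of MNK-3. For Rrm2 (261 CPM in ILC2, 199 and 269 in MNK-3) and Tpx2 (356, and 335 and 456) ILC2 lay between the MNK-3 libraries. Mki67, a marker of dividing cells, was at 150.1 CPM in NK, 2014 in ILC2, and 2745 and 4011 in MNK-3. Top2a, the topoisomerase of mitosis, was at 103, 1106, and 1790 and 2607 CPM, and Cdk1, the mitotic kinase, at 7.12, 117, and 175 and 208 CPM. The summed level of the 15 markers was 628 CPM in NK, 5389 in ILC2, and 7364 and 10432 in MNK-3, with 0 of the 15 at 0 in any library. In MNK-3 over NK, 14 of 15 markers were at least 2-fold higher (21.8% of all genes at 10 CPM or more), with a median log2 ratio of 4.49. Of the markers, 4 were called higher there with limma voom, beside 0.289% of all genes. In MNK-3 over ILC2 the marker median was 0.68, beside 1.12 over all genes tested and 0.67 over those at 10 CPM or more. There 0 of 15 markers were at least 2-fold higher, beside 18.3% of genes at 10 CPM or more, and 3 were called higher, beside 0.902%. Condensin II had a median of 1.28 in that comparison, with 2 of 3 genes at least 2-fold higher. Divided by the geometric mean of the markers per kb, the 10 cycle-tied genes stood at 1.62 in NK, 0.587 in ILC2, and 0.859 and 0.880 in MNK-3. Relative to these markers the cycle-tied genes were thus highest in NK and lowest in ILC2. That order was not particular to them: the Smc5/6 genes stood at 7.32 in NK and 0.367 in ILC2, and the lamina genes at 5.68 and 0.625. The markers include Ccnb1, which had 2 counts in NK. The part of the cell cycle in the condensin differences was not tested.

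The Smc5/6 complex, a related ring that works in DNA repair and replication, varied little, by 1.78-fold for Smc5 and 1.89-fold for Smc6 between lowest and highest. Smc5 was at 205 CPM in NK, 116 in ILC2, and 159 and 202 in MNK-3. Smc6 was at 286, 204, and 309 and 385 CPM. ILC2 was lowest for both with library totals, and MNK-3 replicate 1 with TMM factors. With limma voom 0 differences were called, with 1 (Smc6 in MNK-3 over ILC2) at an unadjusted p under 0.05. Their geometric mean per kb relative to the loop genes was 0.838 in NK, 0.781 in ILC2, and 0.833 and 0.895 in MNK-3.

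Among the lamina genes, the B-type lamins followed the order of the condensins. Lmnb1 was at 163 CPM in NK, 457 in ILC2, and 618 and 869 in MNK-3. Lmnb2 was at 27.8, 50.7, and 87.0 and 77.7 CPM. With library totals NK was lowest for both and MNK-3 highest, with no overlap. MNK-3 replicate 1 fell below ILC2 for Lmnb1 with TMM factors, and for both with median-ratio factors. Lmnb1 was called in MNK-3 over NK, at 2.14 on the log2 scale (SE 0.40, adjusted p = 1e-05, limma voom), and missed in ILC2 over NK at 1.48 (SE 0.44, adjusted p = 0.0532, limma voom). Lmna, the A-type lamin gene, was at 38.8 CPM in NK, 27.9 in ILC2, and 85.9 and 96.8 in MNK-3, so here ILC2 was lowest. Lbr, the lamin B receptor of the inner nuclear membrane, was at 349, 354, and 347 and 474 CPM. It had the narrowest range of the 34 genes, 1.37-fold from lowest to highest, and 10.7% of its exon length is shared with other genes, among them the antisense gene Dnah14.

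Per kb of exon, Lmnb1 was the main lamin transcript in every library. It made up 80.7% of the summed lamin level in NK, 90.3% in ILC2, and 85.6% and 89.4% in MNK-3. Lmna over Lmnb1 was 0.121 in NK, 0.0309 in ILC2, and 0.0705 and 0.0565 in MNK-3. The A-type share was thus highest in NK, where the level of Lmna itself was below that of MNK-3. Lmnb1 over Lmnb2 was 8.49 in NK, 13.0 in ILC2, and 10.3 and 16.2 in MNK-3, so the MNK-3 libraries spanned ILC2.

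Further genes of the same pathways, a list of 47, were tested in the same fit. In MNK-3 over NK, 2 were called higher and 0 lower with limma voom, with a median log2 ratio of 0.84. At an unadjusted limma voom p under 0.05, 4 were higher, beside 1.34% of all genes, and 1 lower, beside 3.85%. The 2 are Tmpo, whose lamina-associated products bind lamins and chromatin, at 2.12 (adjusted p = 9.48e-06), and Syne2, an outer nuclear membrane nesprin, at 1.87 (adjusted p = 2.56e-05). Over all genes tested, 0.289% were called higher and 2.04% lower there. In MNK-3 over ILC2, limma voom called 5 of the 47 higher, beside 0.902% of all genes, and 2 lower, beside 2.37%. In ILC2 over NK it called 1 higher, beside 0.479%, and 3 lower, beside 0.819%.

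The 12 nuclear envelope genes of the list had a median log2 ratio near 0 for ILC2 over NK, with 1 called higher and 2 lower. The 3 called encode parts of the link between nucleus and cytoskeleton, while Sun1, which belongs to the same link and is named after its values were seen, was at 60.4 CPM in NK, 60.8 in ILC2, and 111 and 106 in MNK-3. Syne2 was at 213 CPM in NK, 47.5 in ILC2, and 674 and 929 in MNK-3. Its relative Syne1 was at 199, 744, and 291 and 223 CPM. Sun2, an inner membrane partner of nesprins, was at 615, 135, and 589.9 and 761 CPM. ILC2 was lowest for Syne2 and Sun2 and highest for Syne1, with no overlap. MNK-3 exceeded ILC2 by 4.03 for Syne2 (adjusted p = 9.2e-13) and 2.29 for Sun2 (1.6e-09), and was lower for Syne1 at -1.52 (1.24e-08), on the log2 scale in limma voom. ILC2 against NK gave -2.17 for Syne2 (adjusted p = 0.0306), -2.19 for Sun2 (1.03e-05) and 1.90 for Syne1 (0.000379) in limma voom. As with the members, the adjusted p of each called gene of the further list reached 1 in at least 1 alternative.

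The other called genes were Vezf1, Tmpo, Timeless and Stag3. Vezf1, a zinc finger protein of insulators, was at 239 CPM in NK, 48.5 in ILC2, and 157 and 214 in MNK-3. It was lowest in ILC2 and called against both NK (-2.30 for ILC2 over NK, adjusted p = 0.0114) and MNK-3 (1.88 for MNK-3 over ILC2, adjusted p = 0.0116) in limma voom. Timeless, which couples cohesion to the replication fork, was higher in MNK-3 than in ILC2 by 1.40 (adjusted p = 0.0221), as was Tmpo by 0.85 (0.0196), in limma voom. Stag3, known as the meiotic Stag subunit, was at 70.5 CPM in NK, 64.0 in ILC2, and 15.2 and 10.9 in MNK-3, and lower in MNK-3 than in ILC2 by a log2 difference of -2.22 (adjusted p = 0.0267, limma voom). It was the only one of the 5 germline cohesin and Ctcfl genes called in a comparison, and it is named here after its values were seen. Rad21l had 0 counts in NK, ILC2 and MNK-3 replicate 2, which allows up to 0.647, 0.323 and 0.198 CPM (3 counts).

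**Figure D4:**
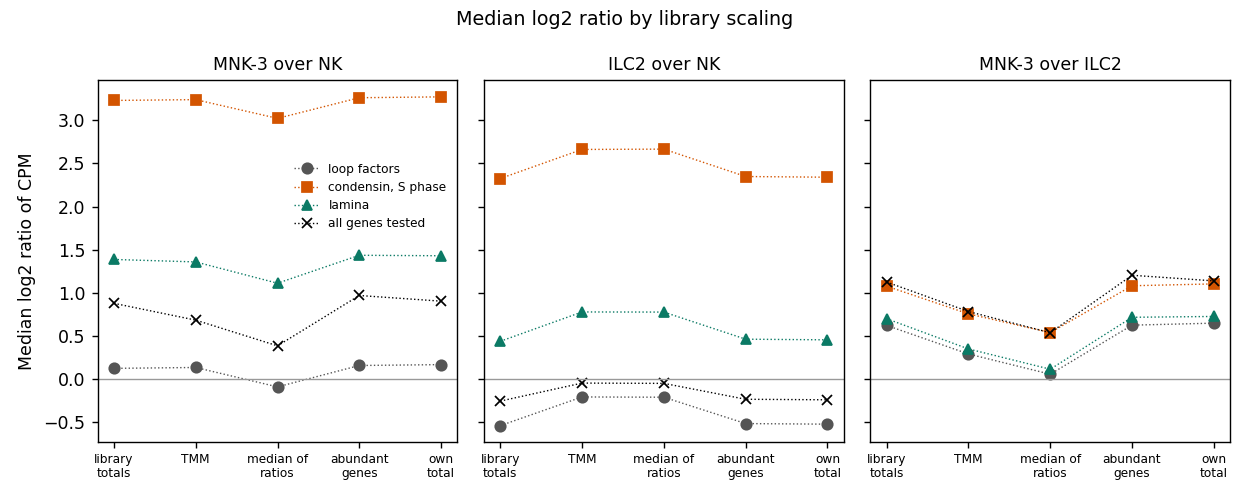
Median log2 ratio of CPM over the loop, cycle-tied and lamina genes and over all genes tested, under 5 ways of scaling the libraries, 1 panel per comparison. The cycle-tied median stays between 3.02 and 3.27 for MNK-3 over NK. The loop median lies below that of all genes tested under these 5 scalings with both MNK-3 libraries in. It does not when MNK-3 replicate 1 is left out (0.17 against -0.26 over NK, and 0.70 against 0.00 over ILC2). Beside genes at 10 CPM or more (not drawn), the loop median for MNK-3 over ILC2 is higher with TMM (0.29 against 0.26) and median ratios (0.056 against -0.016). With the other scalings it is lower (0.62 against 0.67 with library totals).

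The order of the roles was kept under each scaling shown in the plot of medians by library scaling. For MNK-3 over NK the cycle-tied median was 3.02 to 3.27 and the lamina median 1.11 to 1.44, while the loop median was -0.091 with median-ratio scaling and 0.12 to 0.17 with the others. For ILC2 over NK the cycle-tied median was 2.33 to 2.67 and the loop median -0.54 to -0.21. For MNK-3 over ILC2 the cycle-tied median was 0.54 to 1.10, beside 0.54 to 1.20 over all genes tested, and without MNK-3 replicate 1 it was 1.27 beside 0.00. Over genes at 10 CPM or more the median was 0.67 with library totals and -0.02 with median-ratio scaling, and with library totals 0.20 without that library.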

How the data were processed

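Total RNA of the 4 libraries was sequenced in pairs of 38 bp reads after a stranded total-RNA preparation (SMARTer Stranded Total RNA-seq v2 Pico), from RNA with integrity numbers above 9, per the labels' protocols. Those protocols name 2 technical replicates per experiment, while each table holds 1 column of values. Per the submitters' processing notes, STAR 2.7.8a served for alignment to mm10/GRCm38 and HTSeq for counting; the gene set and strand setting are not given in the sources used here. The deposited values, recorded here under the unit other, are whole-number read counts per gene that the authors left without normalization. Entries that name no gene held 26.6% to 76.5% of reads in MNK-3, 49.3% in NK and 25.9% in ILC2 and were left out. The MNK-3 tables list 31053 genes and the others 53465, so only shared genes were used.

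CPM is a count per 1000000 over the 30731 shared genes, and levels per kb use exon lengths from GENCODE M21. Genes were kept at a minimum count of 10 (scaled to the median library) and a total of 15, which left 25283. limma voom was the test (R 4.3.3, limma 3.58.1), with 3 groups in 1 fit, library totals as scaling, 1 residual degree of freedom and two-sided Benjamini-Hochberg adjusted p-values; prior degrees of freedom were infinite, so a gene's own spread has no weight. It was tested on simulated data with library totals taken as true and the same base profile in each library. That test cannot speak to the background of MNK-3 replicate 1 or to the choice of scaling. Count models were not used, since the automated unit check did not accept these tab-separated tables as a count matrix. Tables were handled in Python 3.11.15.

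The members and lists were chosen with earlier results of these data known. All 34 members are named; of the 47 further genes, those called, at most 6 per comparison by adjusted p. Alternatives were TMM, median-ratio, abundant-gene and all-listed-gene scaling, no filter, counts thinned to 4637812, fits on the 3 libraries compared, leaving out an MNK-3 library, 0.1 or 2 CPM added, and background subtracted.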

Additional observations from a re-analysis of the deposited data

How the results depend on the processing

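Medians of log2 ratios for cycle-tied genes kept their sign in every alternative run, and loop genes kept theirs except for MNK-3 over NK. There the loop median was -0.091 with median-ratio scaling and -0.053 to 0.17 when an MNK-3 library was left out, against 0.12. The lamina median for MNK-3 over NK was 1.36 with TMM, 1.11 with median ratios, 1.44 with abundant-gene factors, 1.43 with totals over all listed genes, 1.40 with background subtracted or 0.1 CPM added, 1.35 with 2 CPM added, and 1.38 to 1.39 without an MNK-3 library. For MNK-3 over ILC2, TMM and median ratios gave 0.29 and 0.056 for loop genes, 0.76 and 0.54 for cycle-tied genes and 0.35 and 0.11 for lamina genes, and the loop median was 0.38 to 0.70 without an MNK-3 library. For ILC2 over NK they both gave -0.21 for loop genes, 2.66 and 2.67 for cycle-tied genes and 0.78 for lamina genes; the lamina median was 0.46 with abundant-gene factors, 0.45 with totals over all listed genes, and 0.44 and 0.42 with 0.1 and 2 CPM added.

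Members called higher in MNK-3 over NK numbered 5 and, in limma voom, 0 with TMM, median-ratio or abundant-gene scaling, 3 with no filter and 12 with thinned counts; the 1 called lower was lost (0) under the same 3 scalings. In MNK-3 over ILC2 the 4 called higher became 0, 0, 2 (Rad21 and Smc4) and, thinned, 7. In ILC2 over NK the 1 called higher became 0 under the 3 scalings and with no filter, 2 with totals over all listed genes and 5 thinned, and the 1 called lower became 0 under the 3 scalings. The cause was not tested. Over the 34 members and the alternatives with a fit, 4 of 238, 12 of 238 and 10 of 204 values had the opposite sign to the main one (MNK-3 over NK, MNK-3 over ILC2, ILC2 over NK). Over single genes and ratios, 780 values kept their side of the threshold or stayed within the replicate spread, 40 lost a call, 20 gained one and 56 moved.

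No paired analysis was possible because NK and ILC2 have 1 library each, so no comparison shares 2 replicate numbers, and the labels give NK and ILC2 none. Leaving out an MNK-3 library leaves no residual degrees of freedom, so those values have no test. The NK library had the fewest gene reads, and 6 members had under 100 counts there, the lowest 25 (Esco2). Thinned to that depth, limma voom called 13 members for MNK-3 over NK, against 6 at full depth. The part of depth in the missed calls was not tested.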

Other observations

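All 6 further genes of cohesin protection and cleavage were at least 2-fold higher in both MNK-3 libraries than in NK, with a median log2 ratio of CPM of 3.79, and 4 of 6 in ILC2 than in NK, with a median of 3.05. Over genes at 10 CPM or more in any library, 21.8% met that rule for MNK-3 over NK and 18.2% for ILC2 over NK. Espl1, the protease separase that cuts Rad21 at anaphase, was at 8.19 CPM in NK, 117 in ILC2, and 206 and 234 in MNK-3. Haspin, the kinase that marks centromeric chromatin in mitosis, was not higher in ILC2 than in NK, at 39.7 CPM in NK, 33.6 in ILC2, and 84.6 and 96.9 in MNK-3. Against NK, 5 of the 6 replication fork cohesion genes passed the same rule in MNK-3 and 5 in ILC2; the exception in both was Chtf8, a clamp loader subunit, at 162 CPM in NK, 159.6 in ILC2, and 103 and 134 in MNK-3. With limma voom 0 of these 12 genes was called against NK, and 1 (Timeless, against NK) had an unadjusted p under 0.05. The genes Espl1, Haspin and Chtf8 were picked for naming after their values were seen.

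The 14 loop and matrix partners had median log2 ratios of 0.18 for MNK-3 over NK and 0.34 for MNK-3 over ILC2, beside 0.88 and 1.12 over all genes tested. Without MNK-3 replicate 1 they were 0.15 and 0.21, above the -0.26 and 0.00 of all genes, and without replicate 2 they were 0.41 and 0.33, below 1.38 and 1.64. The 4 Smc5/6 subunits of the Nsmce family, unlike Smc5 and Smc6, had a median log2 ratio of 0.94 for MNK-3 over NK, and 2 of 4 were at least 2-fold higher in both MNK-3 libraries, beside the same 21.8% of genes. Among them Nsmce2, a SUMO ligase, was at 21.6 CPM in NK, 23.1 in ILC2, and 63.1 and 49.7 in MNK-3, and was named after its values were seen. With limma voom 0 of the 4 was called in any comparison, and 1 had an unadjusted p under 0.05, for MNK-3 over ILC2.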
